A study of Mus musculus with 8 samples.

Results

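Matrix metalloproteinases are zinc-dependent enzymes that cut collagens and other proteins of the extracellular matrix, and tissue inhibitors of metalloproteinases (TIMPs) block them by binding their active site. The members described here are the genes of 6 such enzymes, Mmp2, Mmp3, Mmp11, Mmp13, Mmp14 and Mmp19, and of 4 inhibitors, Timp1, Timp2, Timp3 and Reck. They were chosen by gene family and by having a measured expression value in the table of the experiment, with earlier results of these data known. All 10 have a row among the 12589 rows of the table.

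The RNA came from mSSC-YFP, a mouse spleen stromal cell line that carries a yellow fluorescent protein. Its samples were treated for 48 h either with DMSO, the vehicle (4 samples), or with BMS493, an inhibitor of retinoic acid (RA) signaling (4 samples). Both groups share this cultured line, which is a model of splenic stroma and not the tissue, and in the study's methods BMS493 was dissolved in DMSO. The study asked how stromal gene expression changes when RA-signaling is blocked. For each gene, the value used here is the authors' mean log2 normalized expression. Its header names no sample, so it was taken to cover all samples of both treatments. The value has no spread between samples. For sequencing depth the study's methods give an average over samples but no value for each library. A level in DMSO alone or in BMS493 alone was not analysed, so the text describes how strongly each gene was expressed across the experiment and draws no comparison between the treatments.

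In fibroblast-like stroma most of these enzymes are secreted as inactive proenzymes or sit on the cell surface, and matrix turnover depends on their balance with the inhibitors. MMP14, a membrane enzyme, activates proMMP2 on the cell surface with TIMP2 as the bridge between them. MMP13 is a collagenase, MMP2 a gelatinase and MMP3 a stromelysin, while RECK is an inhibitor anchored in the cell membrane.

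The identity of the cells was checked on marker genes. All 12 stromal markers had a value, with a median of 7.88 on the log2 scale, and 11 of them lay above the median of all rows, 4.99. Col1a1 had the highest value in the table, 13.3. Of 9 leukocyte markers, Cd68 alone had a value, 1.36, and Ptprc and Itgam were not analysed here. Of the endothelial markers, Pecam1 had 0.47 and Kdr 2.83. Among the epithelial markers, Krt8 and Krt18 had 1.55 and 0.31. Cdh1, the gene of E-cadherin, had 8.03, at percentile 95.1 of all rows, and the stromal marker Nt5e had 0.70, so both stood apart from the rest of their lists. Their part in the members' levels was not tested.

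The strongest members were inhibitors. Timp3, which encodes a TIMP that binds to the matrix, had a mean log2 normalized expression of 11.54, and 11 of the 12589 rows were higher. Timp2, whose protein both inhibits MMP2 and takes part in its activation, had 10.77, with 36 rows above it. Timp1, the gene of a soluble inhibitor, had 7.33, at percentile 90.1. These 3 genes lay above percentile 90 of the table, whereas Reck had 3.92, at percentile 32.4 and below the median of all rows.

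The enzymes ran from percentile 19.3 to percentile 99.1 of all rows. Mmp14 had 9.67 and Mmp2 8.97, at percentiles 99.1 and 98.1 of all rows. Mmp11, the gene of stromelysin-3, which is cleaved by furin before secretion, had 6.14 at percentile 72.7. The remaining enzymes lay below percentile 25. Mmp19 had 3.16 at percentile 23.2, Mmp13 had 2.85 at percentile 20.2 and Mmp3 had 2.76 at percentile 19.3. The table's scale is close to the log2 of CPM, counts scaled to a common library size, on which 2.76 is a CPM of 6.78 and the value of Timp3 a CPM of 2969. If this log-scale mean covers both treatments, as taken here, a gene with unlike levels in the groups has a mean between them.

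**Figure D1:**
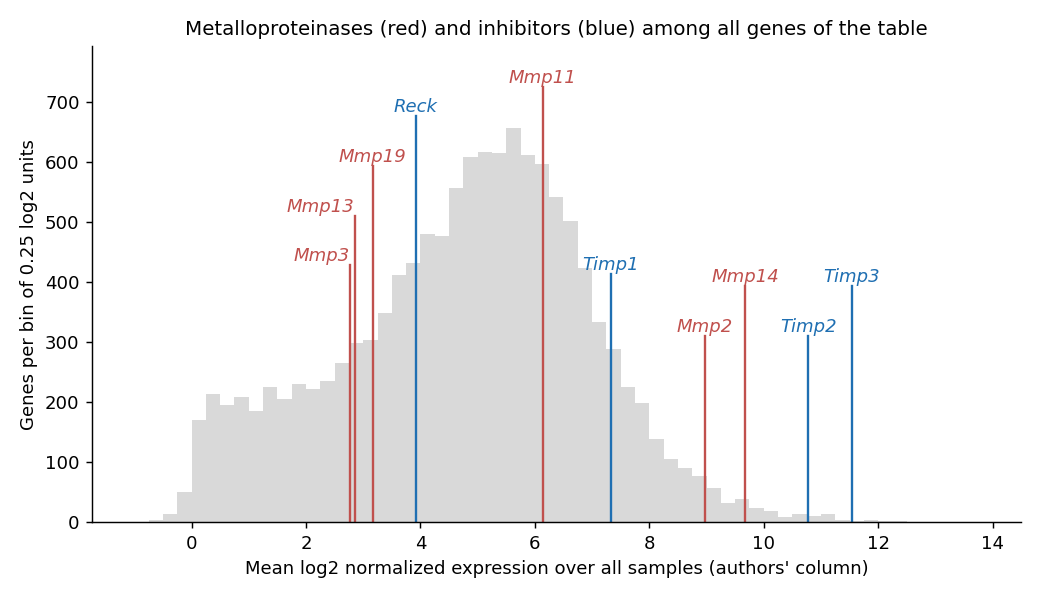
Histogram of the authors' mean log2 normalized expression, taken to cover all samples, for the 12589 rows of the table. The x axis is in log2 units and the y axis in genes per bin. Lines mark the enzymes in red and the inhibitors in blue, and their heights only separate the names. Timp3, Timp2, Mmp14 and Mmp2 stand in the upper tail, while Mmp3, Mmp13, Mmp19 and Reck lie below the median of 4.99.

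Genes can be ranked against each other only per length, since a long transcript yields more fragments. Each value was therefore reduced by the log2 of the gene's exon length in kilobases, which gives the log2 of CPM per kilobase. The length was the union of all exons in GENCODE M21. Timp2 then came first with 8.81, followed by Timp3 with 8.51 and Timp1 with 7.50. Mmp2 and Mmp14 came next with 7.21 and 7.10. Mmp11 was at 4.66, 2.43 log2 units under Mmp14. The lowest group held Mmp3 at 1.91, Reck at 1.67, Mmp13 at 1.43 and Mmp19 at 1.34. The median over all rows with a length was 2.87, so 6 of the 10 members lay above it. The correction moved 3 members by more than 5 percentile points. Mmp3, with 1801 bases of exon, moved from percentile 19.3 by expression to 31.7 per length, Mmp11 from 72.7 to 82.1, and Timp1, with 888 bases, from 90.1 to 98.3.

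Without values of single samples, the spread of each level is unknown and no pair of neighbours in this order was tested. The order was instead recomputed with the longest protein-coding transcript and with the coding length. Of the 45 pairs of members, 37 kept their order under all 3 lengths. The steps between the groups held: Mmp14 over Mmp11 by 2.43 to 3.29 log2 units, and Mmp11 over Mmp3 by 2.75 to 3.34. Within the groups the order was less certain. Timp2 was 0.30 above Timp3 per kilobase of all exons, but Timp3 was 0.41 above Timp2 per kilobase of transcript. Likewise, Mmp2 was 0.12 above Mmp14 by all exons and Mmp14 was 0.63 above Mmp2 by transcript. Timp1 was above Mmp2 under each length, but by only 0.05 to 0.28. It was 0.40 above Mmp14 by all exons, with a difference of -0.47 by transcript and -0.84 by coding length, so that Mmp14 ranked above Timp1 under both of the latter. Mmp3, Reck, Mmp13 and Mmp19 differed by at most 0.25 from one to the next by exon length, and their order changed with the coding length.

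**Figure D2:**
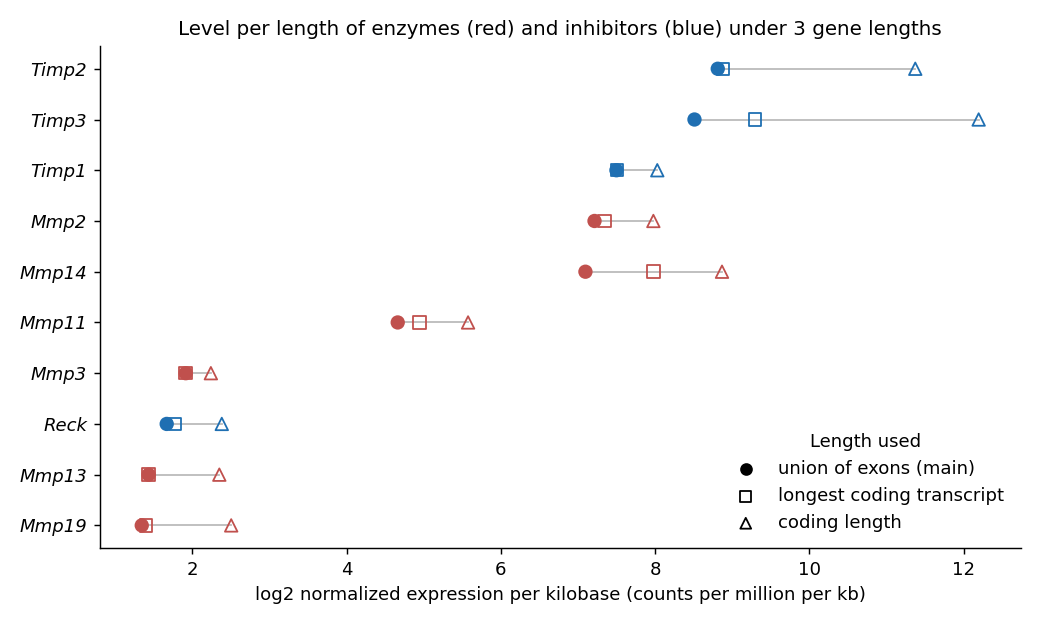
Level per length of each member on the x axis, in log2 of CPM per kilobase, with enzymes in red and inhibitors in blue. Filled circles use the union of exons, open squares the longest protein-coding transcript and open triangles the coding length. Timp3 runs from 8.51 to 12.2 with the length chosen, whereas Timp1 stays between 7.50 and 8.03, and the 4 lowest members reach 2.50 at most under these lengths.

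Summed per kilobase of exon, the 4 inhibitors reached 998 CPM per kilobase and the 6 enzymes 319.5. The inhibitor transcripts were thus 3.12 times as abundant, a log2 difference of 1.64. Timp2 gave 45% of the inhibitor sum, Timp3 36.5% and Timp1 18.1%, with 0.318% from Reck. Among the enzymes, Mmp2 gave 46.5% and Mmp14 42.8%, so that the pair made up 89.3%. Mmp11 added 7.92%, and Mmp3, Mmp13 and Mmp19 between 0.793% and 1.18% each. The excess of inhibitors held under the other lengths, at 2.83 times with the longest transcript and 9.73 times with the coding length. The last value depends on coding lengths of 633 bases for Timp3 and 660 for Timp2, whose longest transcripts have 4722 and 3709. For Mmp2 the coding length is 1986 of 3078 bases. The excess also held without Timp2, at 1.72 times. It rested on Timp2 and Timp3, since Timp1 with 181 and Reck with 3.17 CPM per kilobase together stayed below the enzyme sum. These are amounts of transcript, and protein and enzyme activity were not measured here.

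The genes of the MMP14, TIMP2 and MMP2 activation complex were all strongly expressed. Per kilobase of exon Timp2 had a CPM of 449, Mmp2 of 148 and Mmp14 of 137. Timp2 was 1.72 log2 units above Mmp14, and by the longest transcript the difference was 0.91. Furin, the convertase that activates proMMP14 and proMMP11, had 3.53 on the log2 scale per kilobase of exon, below both Mmp14 and Mmp11. Its distance from Mmp11 was smaller under the other lengths. By the longest transcript Furin had 4.61 against 4.94 for Mmp11, and by coding length 5.48 against 5.57.

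In the rest of the family, 5 more Mmp genes had a value: Mmp28 with 1.95 per kilobase of exon on the log2 scale, Mmp16 with 0.68, Mmp17 with 0.26, Mmp15 with -0.07 and Mmp23 with -0.45. None of these 5 lay above the median of all rows in mean expression. Mmp15, Mmp16 and Mmp17 encode membrane-bound relatives of MMP14, and Mmp16, the highest of them, was 6.42 log2 units lower than Mmp14. Mmp28 was slightly above Mmp3 by all exons, with 1.95 against 1.91, and by the longest transcript, with 2.12 against 1.91. By coding length the gap was wider, 3.26 against 2.24. Mmp28 also lay above Reck, Mmp13 and Mmp19 under each length. The other 12 genes of the 23 in the family list, Mmp1a, Mmp1b, Mmp7, Mmp8, Mmp9, Mmp10, Mmp12, Mmp20, Mmp21, Mmp24, Mmp25 and Mmp27, were not analysed here. Of the inhibitors, Timp4 was not analysed here.

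Of 23 genes whose proteins activate, bind or clear metalloproteinases, 19 had a value, with a median of 4.96 per kilobase of exon. The highest was Thbs1 at 9.28, the gene of thrombospondin-1, a matrix protein that binds MMP2. Bsg, which encodes the inducer of metalloproteinases known as basigin or EMMPRIN, had 8.29. Lrp1, a receptor that takes up metalloproteinases and TIMPs, had 7.06, close to Mmp14 by all exons. By the longest transcript Lrp1 had 7.31 against 7.98 for Mmp14, and by coding length 7.44 against 8.87. Of the plasmin system, Plau had 5.49 and Plat 4.02, while Plg was not analysed here.

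Of 20 matrix substrates, 16 had a value, with a median of 7.17 per kilobase of exon. Col1a1 with 10.6, Fn1 with 9.53 and Col1a2 with 8.84 were the highest. By all exons, Col1a1, a substrate of the collagenases MMP13 and MMP14, was 3.48 log2 units above Mmp14 and 9.14 above Mmp13. By the longest transcript Col1a1 had 10.72, against 7.98 for Mmp14 and 1.43 for Mmp13. By coding length it had 11.16, against 8.87 and 2.35. By all exons, Timp2 lay between Col1a2 and the proteoglycan gene Bgn, at 8.63, but this place changed with the length used. By the longest transcript Timp2 had 8.88, below Col1a2 at 10.05 and Bgn at 9.97. By coding length it had 11.37, above Col1a2 at 10.43 and Bgn at 11.10.

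**Figure D3:**
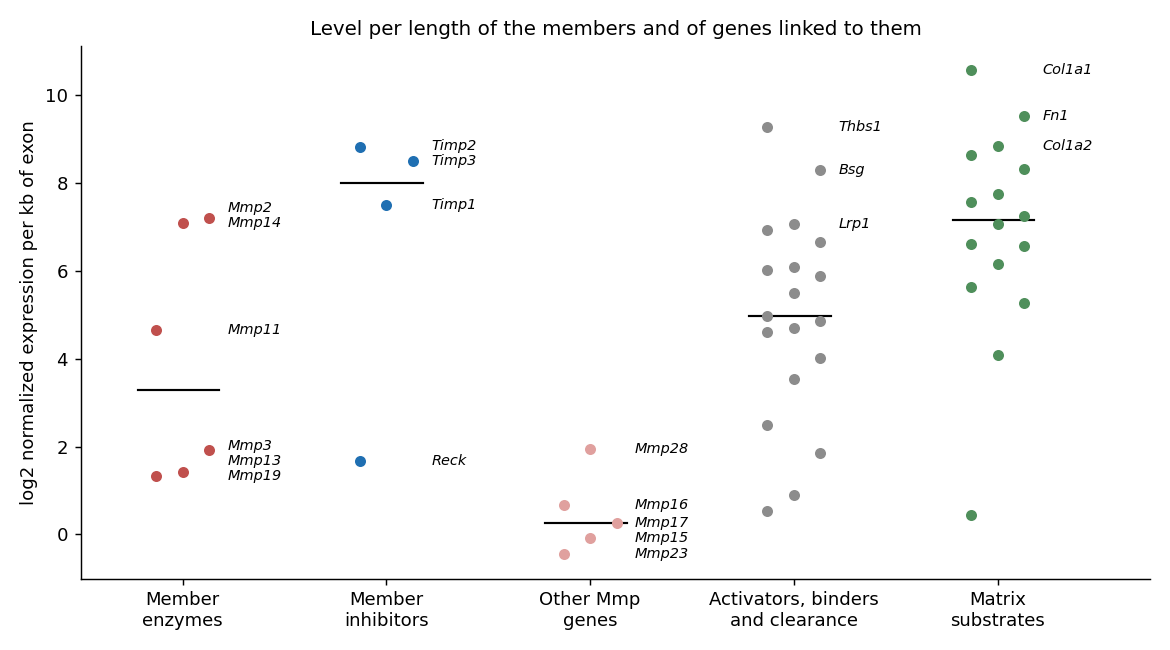
Level per kilobase of exon on the y axis, in log2 of CPM per kilobase, for the member enzymes and inhibitors, the 5 other Mmp genes with a value, 19 genes of activators, binders and clearance, and 16 matrix substrates. Each point is a gene, black lines are medians and points are shifted sideways only for legibility. Except for Reck, the inhibitors lie above every Mmp gene, and Col1a1 is the highest of all points.

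The members lie on 7 chromosomes of GRCm38. Mmp3 is at chr9:7445822-7455975 and Mmp13 at chr9:7272514-7283331, both on the plus strand. They belong to a row of 10 Mmp genes that spans 427 kb on chromosome 9, and 162 kb lie between the end of Mmp13 and the start of Mmp3. Both genes had a low level, with mean log2 values of 2.85 for Mmp13 and 2.76 for Mmp3 that differed by 0.09. In log2 units, Mmp3 minus Mmp13 was 0.48 per kilobase of exon and -0.11 by coding length. The remaining 8 genes of the row were not analysed here. The other member enzymes lie elsewhere: Mmp2 at chr8:92827291-92853420, Mmp14 at chr14:54431612-54445364 and Mmp11 at chr10:75923222-75936496. Mmp19, whose level was also low, is at chr10:128790910-128800824. Timp1 is at chrX:20870166-20874735, Timp2 at chr11:118301069-118355740, Timp3 at chr10:86300372-86349506 and Reck at chr4:43875530-43944806.

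**Figure D4:**
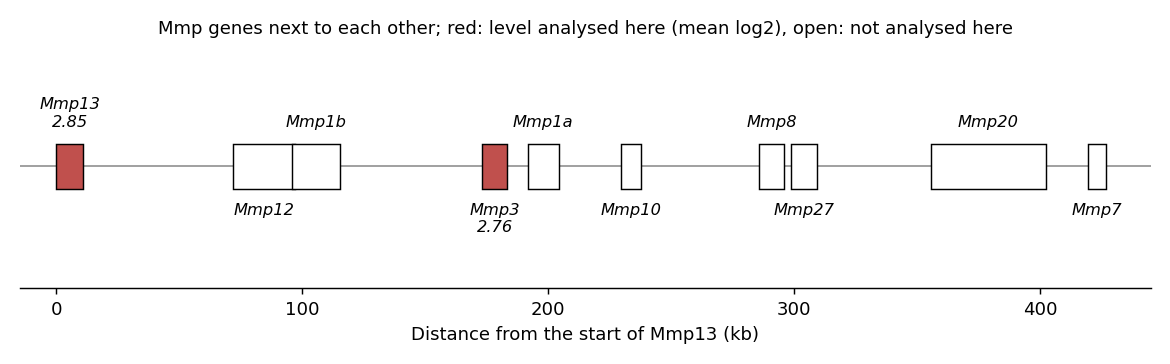
Map of the 10 neighbouring Mmp genes of chromosome 9, to scale, with the distance in kb from the start of Mmp13 on the x axis. Red boxes are the genes with a level, Mmp13 (2.85) and Mmp3 (2.76, mean log2 normalized expression), and open boxes are genes not analysed here.

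Some levels may include reads of another gene, or may lack reads in sequence shared with one. Timp1 and Timp3 lie within the synapsin genes Syn1 and Syn3, on the opposite strand. For Timp3, 33.8% of all 100-base windows of its coding transcripts also occur in transcripts of Syn3, whose mean log2 value was 1.52, far below 11.54. Timp1 shares no exon with Syn1. Mmp19 shares 22.4% of its windows with genes on the opposite strand, Tmem198b and Gm47093. Tmem198b had 4.71, above the 3.16 of Mmp19. Mmp11 shares 2.25% of its windows with Chchd10 and Mmp3 0.294% with its paralog Mmp10. The remaining 6 members share none. The library kit keeps the strand, but whether the counting used it is not given in the sources used here.

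The promoters of Mmp3 and Mmp13 are shown because the genes are neighbours with low levels, beside those of Mmp14 and Timp1, which had high levels. Promoters from RefSeq on GRCm38.p6 were matched for 8 of the 10 members, all but Mmp2 and Mmp19. Each sequence is the 100 bases before the annotated start, 5′ to 3′ on the gene's strand. Capitals mark the AP-1 motif TGAGTCA, searched on both strands, and TATAAA, the letters of a TATA box, searched on the gene's strand.
Mmp3, chr9:7445722-7445821, plus strand: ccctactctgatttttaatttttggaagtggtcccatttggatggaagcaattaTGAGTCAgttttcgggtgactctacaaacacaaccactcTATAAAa
Mmp13, chr9:7272414-7272513, plus strand: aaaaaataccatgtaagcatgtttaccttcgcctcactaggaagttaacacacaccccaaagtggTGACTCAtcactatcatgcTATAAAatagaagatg
Mmp14, chr14:54431498-54431597, plus strand: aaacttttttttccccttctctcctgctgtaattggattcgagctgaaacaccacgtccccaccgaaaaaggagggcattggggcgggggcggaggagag
Timp1, chrX:20870066-20870165, plus strand: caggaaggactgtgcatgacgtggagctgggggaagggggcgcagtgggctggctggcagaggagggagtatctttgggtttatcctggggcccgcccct

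Both motifs were found in the 250 bases before the start of Mmp3 and of Mmp13, and in none of the other 6 member promoters. In Mmp3 the AP-1 motif spans 46 to 40 bases before the start and the TATA box 7 to 2 bases before it. In Mmp13 the AP-1 motif, on the opposite strand, spans bases 35 to 29 and the TATA box bases 16 to 11. Over all 32851 promoters of this length, 4.46% hold the AP-1 motif and 7.59% the TATA box. AGGTCA, the core repeat that retinoic acid receptors bind in pairs, was found on either strand in 14.02% of all promoters and in 0 of the 8 members', which says only that these letters are not in this window. The same regions of Mmp3 and Mmp13 were poor in G and C, with 37.6% and 40.4% and 1 CpG each, against 54.4% to 68.4% and 6 to 21 CpGs in the other 6. Among those 6, Reck also had a low level, 3.92, with neither motif, 68.4% G and C and 19 CpGs. Among genes with a value, the median mean log2, not corrected for length, differed little with either motif. It was 4.94 for the 355 genes with AP-1, against 5.15 for the 8490 without. For TATAAA the medians were 5.05 with it and 5.14 without. Genes without a value do not enter these medians, so whether a motif went with having a value was not tested. A match is a description of the sequence and not evidence of a bound factor.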

How the data were processed

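RNA-seq of the stromal line was processed by the authors before deposition. The paper's methods name a strand-preserving mRNA kit, single-end reads, STAR (version 2.3.0e in the submitters' processing notes) on mm10, Rsubread counts of unique alignments per Ensembl gene, and scaling by the trimmed mean of M-values. The authors deposited 1 table with a mean log2 normalized expression per gene, written with decimal commas that were converted on reading. The header of this column names no sample, so the mean was taken to cover all samples. The sum over genes of 2 raised to these values was 989369, so the scale is close to log2 CPM. The other 4 columns hold the authors' own comparison of BMS493 with DMSO (fold change, t, p and adjusted p) and were not used. Values of single samples were not analysed here, so the planned test of BMS493 against DMSO, by the quasi-likelihood or the limma method, was not run. No spread between samples can therefore be given. The paper's methods give the depth only as an average over samples, so the precision of each library is not known.

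Samples were grouped by their titles into DMSO (4) and BMS493 (4). The members and gene lists were chosen with earlier results of these data known. Named genes are the members, their families, genes overlapping or neighbouring them, and the 3 highest per length of each list; Furin, Plau, Plat, Bgn, and the marker genes were named after their values were seen. Symbols were matched to GENCODE M21 (GRCm38, the assembly of mm10), and 11765 rows (93.5%) had 1 gene model and a length. Of the rows, 19 carry a symbol turned into a date. Percentiles are the percent of all rows with a lower value. Shared reads were estimated with windows of 100 bases, the read length. Motifs were searched in the 250 bases before RefSeq starts. Printed promoter windows hold no annotated exon. Steps used Python 3.11.15, numpy 2.4.6, pandas 2.3.3 and matplotlib 3.10.9. The percentile and the motif search were tested on simulated data, while gene lengths, shared windows and class sums were not. Alternatives were 2 other gene lengths, rows with a mean log2 of at least 1, protein-coding rows, and sums without single members.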

Additional observations from a re-analysis of the deposited data

How the results depend on the processing

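Since no spread was known, a level counted as moved beyond a factor of 1.5 (0.585 on the log2 scale) and a percentile beyond 5 points. The log2 difference of the summed inhibitors over the summed enzymes, 1.64 by the union of exons, moved by less than that with the longest transcript and became 3.28 with the coding length, 0.78 without Timp2 and 2.54 without Mmp2. Without Timp3, left out after its overlap with Syn3 had been seen, it was 0.99. The sign was positive in each of these settings, none of which left out both Timp2 and Timp3. With the longest transcript, 2 of 10 levels moved, and with the coding length 8 of 10, all upwards since coding lengths are shorter. Percentiles moved for 0 of 10 members among protein-coding rows, for 3 of 10 among rows with a mean log2 of at least 1, and for 3 of 10 when taken per length. No paired analysis was possible because only a mean, taken to cover all samples, was used. For the same reason leaving out each replicate, another scaling, another pseudocount and a filter on single samples were not run. Depth is given in the study's methods only as an average over samples, so no counting error was computed for the low levels of Mmp3, Mmp13, Mmp19 and Reck.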
